A study of Mus musculus with 16 samples.

Results

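H3K9me3, trimethylation of histone H3 at lysine 9, was examined over 42 long genes that are known mainly for their roles in neurons. A peak was taken as belonging to a gene when the deposited table named that gene for it, either because the peak overlapped the gene or because the gene was the nearest one within 5 kb. By this rule 10381 of 212313 H3K9me3 peaks belonged to the 42 genes, and each of the 42 genes had at least 40 peaks. Of these peaks, 10334 overlapped the gene. In all, 14216 genes were named for at least 1 peak, and 77485 peaks were named after a gene. For H3K9me2, dimethylation of the same lysine, 1358 of 47065 regions listed at least 1 of the 42 genes.

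Chromatin came from whole crypt isolates of the small intestine of C57BL/6 mice. The genotypes were wild type (WT) and knockout (KO), the latter lacking the remodeler Smarcad1 after Vil-Cre had acted on its loxP-flanked exons. The Villin promoter drives the recombinase in intestinal epithelium, so other cells of a crypt preparation keep the gene, and the labels do not say whether libraries came from single or pooled animals. For each mark there were 3 ChIP libraries per genotype, and a single input, chromatin sequenced with no pull-down, for WT and for KO, which makes 16 libraries in all. Per the methods of the study the mice were males, and the age of those used for ChIP was not given in the sources used here. In-peak reads per ChIP library ranged from 7063966 to 11829917 for H3K9me3 and from 18986927 to 39080740 for H3K9me2. No peak and no region lay over Smarcad1, and these values therefore give no check of the deletion. RNA levels of the 42 genes were not analysed here. In bulk chromatin, fewer marked cells and less mark per cell cannot be told apart. An H3K9me3 peak was found at 3 of 12 crypt epithelium markers (5 peaks, 2 lower and 1 higher in KO), 1 of 5 immune markers (1 peak), 2 of 5 mesenchyme and vessel markers (15 peaks, 1 lower) and 1 of 7 enteric neuron and glia markers (Elavl4, with 35 peaks, none called). Peaks at markers do not measure how many cells of a type were present.

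H3K9me3 is written by methyltransferases such as Setdb1 and Suv39h and read by HP1 proteins, and it marks constitutive heterochromatin, repeats and some silent genes. H3K9me2 is written mainly by G9a and GLP and spreads over broad silent domains, often at the nuclear lamina. Many genes for synaptic adhesion molecules, receptors and channels are very long because of large introns, are rich in A and T bases, and lie in such silent domains in cells other than neurons.

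The sequences below come from the peaks that differed between the genotypes. For Cntnap2, a relative of the neurexins, and Csmd3, a large transmembrane protein with CUB and sushi domains, they are the central 300 bases of a peak that was lower in KO. For Tenm3, a teneurin that pairs with receptors across the synapse, and Ntm, an adhesion protein of the IgLON family, they are the central 300 bases of a peak that was higher in KO. Letters are from the plus strand of GRCm38.p6, and capitals mark bases outside the repeats that the RefSeq genome file masks. They are shown because called peaks ranged widely in repeat content, from 29% to 98.4% in the lower and from 7.22% to 79.9% in the higher ones, ranges that overlap.
Cntnap2, lower in KO, chr6:46890226-46890525: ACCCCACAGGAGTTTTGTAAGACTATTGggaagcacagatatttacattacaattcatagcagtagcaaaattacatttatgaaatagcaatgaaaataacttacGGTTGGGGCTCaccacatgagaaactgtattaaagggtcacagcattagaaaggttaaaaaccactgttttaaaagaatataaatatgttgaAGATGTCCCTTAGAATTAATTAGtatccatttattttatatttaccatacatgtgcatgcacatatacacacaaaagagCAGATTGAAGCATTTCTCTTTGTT
Csmd3, lower in KO, chr15:48233176-48233475: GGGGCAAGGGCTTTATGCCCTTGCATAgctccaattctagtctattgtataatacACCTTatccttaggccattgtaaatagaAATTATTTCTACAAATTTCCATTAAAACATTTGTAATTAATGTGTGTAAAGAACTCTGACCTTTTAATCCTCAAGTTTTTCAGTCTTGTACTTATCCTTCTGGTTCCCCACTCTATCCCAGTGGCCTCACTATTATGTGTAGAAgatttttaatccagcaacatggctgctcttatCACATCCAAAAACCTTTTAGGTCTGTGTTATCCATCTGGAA
Tenm3, higher in KO, chr8:48704626-48704925: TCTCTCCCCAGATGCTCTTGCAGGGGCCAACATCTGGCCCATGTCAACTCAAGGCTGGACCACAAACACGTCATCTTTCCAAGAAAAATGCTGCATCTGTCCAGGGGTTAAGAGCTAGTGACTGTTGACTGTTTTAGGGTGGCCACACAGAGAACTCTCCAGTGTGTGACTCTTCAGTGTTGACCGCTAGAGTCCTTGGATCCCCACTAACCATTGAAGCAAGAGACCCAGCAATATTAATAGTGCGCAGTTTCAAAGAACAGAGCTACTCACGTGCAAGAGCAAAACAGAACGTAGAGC
Ntm, higher in KO, chr9:29717701-29718000: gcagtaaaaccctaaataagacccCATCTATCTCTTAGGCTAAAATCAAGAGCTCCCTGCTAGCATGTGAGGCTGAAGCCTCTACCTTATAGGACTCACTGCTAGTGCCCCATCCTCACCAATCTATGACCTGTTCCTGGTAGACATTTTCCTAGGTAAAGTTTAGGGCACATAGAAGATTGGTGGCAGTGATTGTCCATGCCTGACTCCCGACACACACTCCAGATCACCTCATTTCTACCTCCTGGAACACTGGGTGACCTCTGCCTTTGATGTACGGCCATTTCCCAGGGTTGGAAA
The repeat share of these windows was 71.3% (Cntnap2), 27.7% (Csmd3), 0% (Tenm3) and 8% (Ntm), and they held 1, 0, 5 and 2 CpG dinucleotides.

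Among the 22 peaks that passed the test, the longest match between any pair joined the lower peaks of Macrod2, an ADP-ribose hydrolase, and Ptprd, a receptor tyrosine phosphatase that organizes synapses. The match ran over 548 aligned bases at 88% identity (BLAST), from the first base of the Macrod2 peak. The first 200 aligned columns are shown, of which 193 were identical. Capitals mark the bases that differ or are missing in the partner, and every base shown is masked as repeat.
Macrod2, lower in KO, chr2:140461651-140461850: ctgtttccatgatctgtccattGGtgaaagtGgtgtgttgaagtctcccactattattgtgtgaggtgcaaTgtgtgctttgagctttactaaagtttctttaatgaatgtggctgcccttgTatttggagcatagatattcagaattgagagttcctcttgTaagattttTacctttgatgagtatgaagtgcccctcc
Ptprd, lower in KO, chr4:76112816-76113014: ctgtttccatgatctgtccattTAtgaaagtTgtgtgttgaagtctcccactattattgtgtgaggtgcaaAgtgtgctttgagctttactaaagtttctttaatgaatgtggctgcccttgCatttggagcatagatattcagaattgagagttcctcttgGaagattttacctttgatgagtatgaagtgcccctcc
Of 231 pairs among the 22 peaks, 26 shared a match of at least 100 bases at 70% identity or more. The pair shown was the only 1 between lower peaks, while 7 joined a lower and a higher peak and 18 joined higher peaks. How often other peaks match in this way was not examined.

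Peaks were dense in most of the 42 genes. The genes span 50.4 Mb, 1.85% of the chromosomes, and held 4.89% of all peaks and 13.4% of the peaks that were named after a gene. Density and coverage were taken over all 10884 peaks that lie in the gene bodies, whatever gene they were named for. On that basis the genes carried 21.6 peaks per 100 kb against 7.79 over all chromosomes, and peaks covered 42.7% of their length against 15.2% of all chromosomes. H3K9me2 regions covered 70.4% of the 42 genes and 28.3% of all chromosomes. A share of 79.5% of their H3K9me3 peaks touched an H3K9me2 region, against 68.2% of all peaks.

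**Figure D1:**
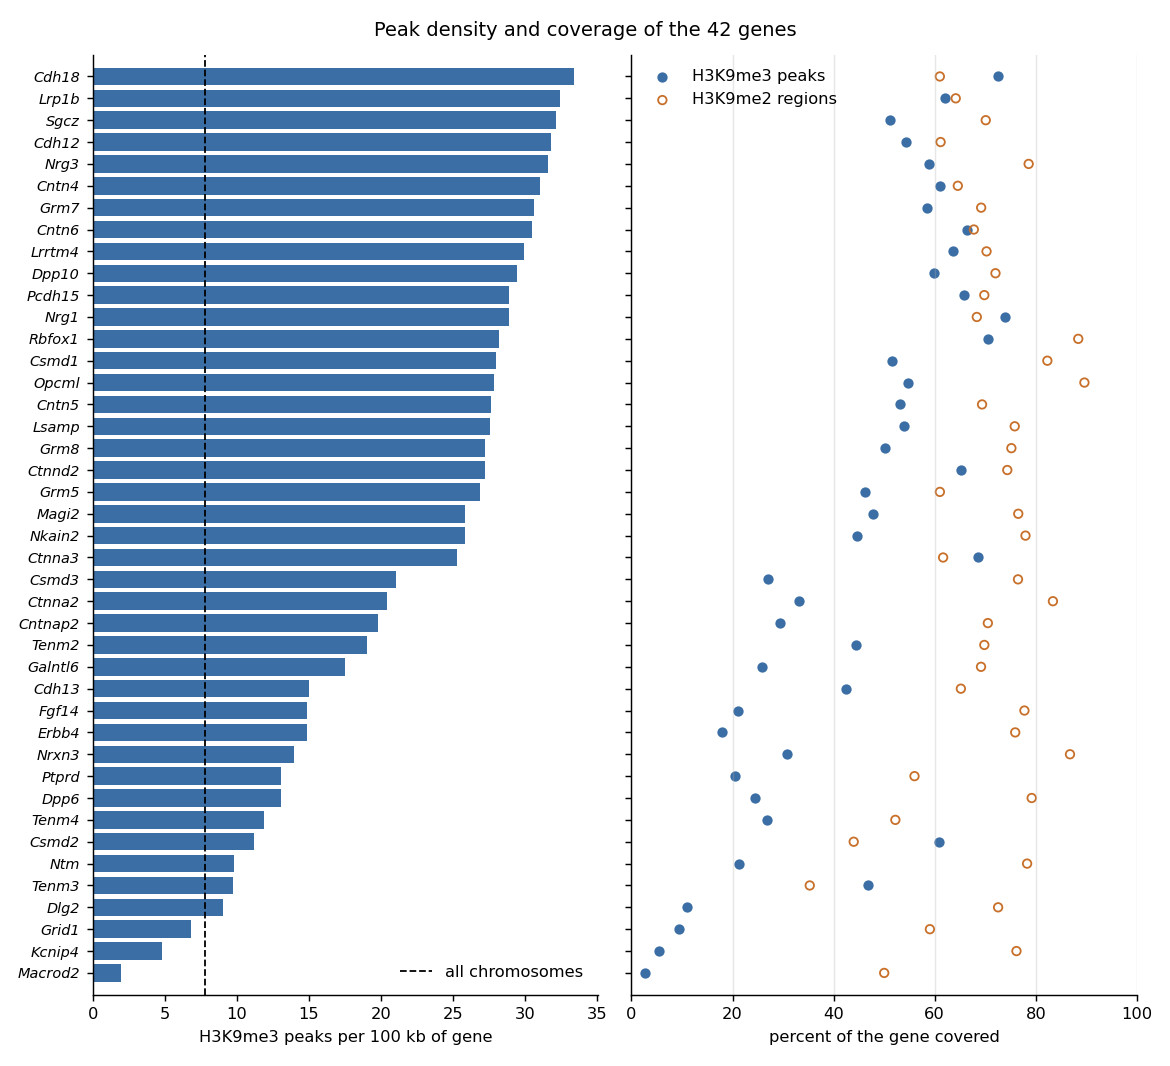
H3K9me3 peaks per 100 kb of each gene (left, bars, with the value over all chromosomes as a dashed line) and the percent of each gene covered by H3K9me3 peaks (filled) and H3K9me2 regions (open) on the right. Peak density ran from 2 per 100 kb in Macrod2 to 33.4 in Cdh18, whereas H3K9me2 covered between 35.3% (Tenm3) and 89.6% (Opcml) of every gene.

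The genes with most peaks per 100 kb were Cdh18, a cadherin, with 33.4, Lrp1b, a giant relative of the LDL receptor, with 32.4, and Sgcz, a sarcoglycan, with 32.1. Coverage by H3K9me3 peaks was highest in Nrg1, which codes for a growth factor that signals through Erbb receptors, at 73.9% of 1.07 Mb. The fewest peaks per 100 kb lay in Macrod2 (2), in Kcnip4, a potassium channel partner, with 4.84, and in Grid1, a delta glutamate receptor, with 6.81. Macrod2 is 2 Mb long and had 40 peaks that covered 2.6% of it. Its H3K9me2 regions numbered 63 and covered 50% of the gene. Across the 42 genes, coverage by one mark and by the other had a Pearson r of 0.01 and a Spearman rho of -0.09, a description over genes that share the same libraries.

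Close relatives differed in density. Among the CUB and sushi domain genes, Csmd1 had 28 peaks per 100 kb, Csmd3 had 21 and Csmd2 had 11.2. Csmd2 nevertheless was covered to 60.9%, since its peaks were wide, up to 38550 bp. Among the teneurins, Tenm2 had 19 peaks per 100 kb, Tenm4 had 11.9 and Tenm3 had 9.74. Of the metabotropic glutamate receptors, Grm7 had 30.6, Grm8 had 27.2 and Grm5 had 26.9. Erbb4, the receptor of neuregulins, had 14.9 peaks per 100 kb, against 31.6 and 28.9 in its ligands Nrg3 and Nrg1.

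Peaks lay in introns for the most part. Of 10381 peaks, 460 (4.43%) overlapped an exon of the gene in GENCODE M21, and 17 of 42 genes had a peak within 1 kb of the annotated start. Peaks were spread along the genes, with between 7.74% and 11.9% of them in each of 10 equal steps along the gene. The median peak was 22.2% repeat, against 35.2% over all peaks, and 39.1% G or C, against 39.6%. In 35 genes every peak in the gene body carried the name of that gene, while in Cdh12, Rbfox1 and Dlg2 the names covered 38.8%, 40.2% and 63.5% of body peaks, because other annotated genes lie in the same intervals.

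Enrichment over input was low. ChIP over input is the log2 ratio of the shares of in-peak reads with 1 read added, so 0 means the level of the average read in peaks and not the absence of the mark. Its median over the peaks of the 42 genes stood at -0.16, -0.14 and -0.14 for the WT libraries. For the KO libraries it stood at -0.01, -0.05 and -0.05. The genotype means were -0.15 ± 0.01 (WT) and -0.04 ± 0.02 (KO, SD, n = 3 each), and the genotypes did not overlap. The n counts ChIP libraries, since all ratios of a genotype share 1 input, and the spread of inputs is not in the SD. Scaled by the median peak of each library, the means were -0.09 (WT) and -0.02 (KO), and with both inputs pooled they were -0.12 and -0.03. Over all peaks, with each genotype against its own input and no such scaling, the means were -0.06 ± 0.01 and -0.02 ± 0.02. With libraries pooled, 16 of the 10381 peaks (0.154%) reached 2-fold enrichment, against 3837 (1.81%) of all peaks. Reads per kb of peak, scaled to 1e6 in-peak reads, ranged over the genes from 2.09 (Ntm) to 2.49 (Macrod2) in WT and from 2.26 (Nkain2) to 2.68 (Tenm3) in KO.

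The highest mean ChIP over input in WT belonged to Csmd2 (0.07 ± 0.10, SD, n = 3), Macrod2 (0.02 ± 0.02) and Kcnip4 (0.00 ± 0.04). The lowest belonged to Dpp10, a subunit of potassium channels, at -0.20 ± 0.03, Lsamp, an IgLON protein of limbic neurons, at -0.19 ± 0.03, and Grm5 at -0.17 ± 0.03. In KO the means were 0.07, -0.04 and -0.09 for the former and 0.00, -0.03 and 0.03 for the latter. These genes were picked by their WT values, and the KO ratios use a different single input. The part of the choice and of the inputs in these shifts was not tested. For Dpp10 the WT libraries were at -0.24, -0.19 and -0.18 and the KO libraries at 0.07, -0.04 and -0.01, without overlap. Between WT and KO these gene means had a Pearson r of -0.06 and a Spearman rho of -0.20 over 42 genes. This is a description, and it also carries any difference between the WT and KO inputs. Within the 3 highest and within the 3 lowest genes, neighbours in the WT order differed by less than the larger SD of the pair.

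The share of in-peak reads that fell in the 42 genes was higher in KO. WT replicates gave 4.49%, 4.53% and 4.52%. KO replicates gave 4.79%, 4.76% and 4.79%. The inputs gave 4.97% (WT) and 4.94% (KO). All KO libraries lay above all WT libraries and below both inputs. The means were 4.52% ± 0.02 in WT and 4.78% ± 0.02 in KO (SD, n = 3 each). Shares are relative, and a gain here and a loss elsewhere cannot be told apart. For 185 other protein-coding genes of at least 500 kb the means were 6.57% ± 0.04 and 6.84% ± 0.03, with 7.02% and 7.04% in the inputs.

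**Figure D2:**
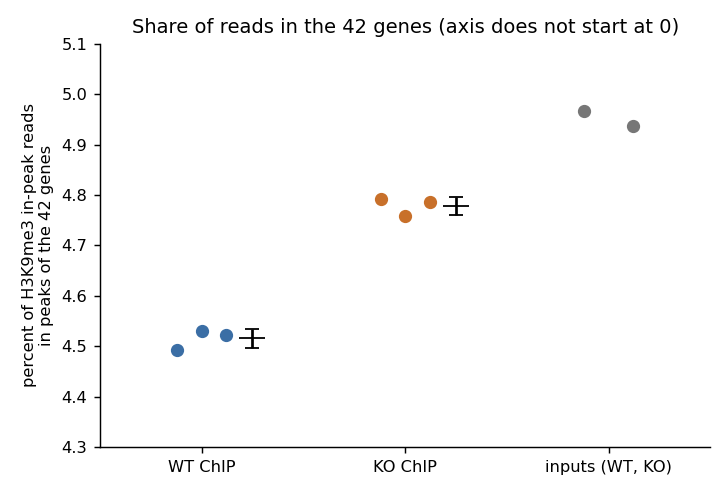
Percent of in-peak H3K9me3 reads that lie in peaks of the 42 genes, 1 point per library, with the mean and SD of each genotype beside the points; the axis does not start at 0. WT libraries sit between 4.49% and 4.53%, KO libraries between 4.76% and 4.79%, and the inputs at 4.97% and 4.94%.

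To find local differences within the genes, each peak was compared between genotypes (limma on all 212313 peaks, deposited log2 values, Benjamini-Hochberg adjusted p under 0.05). Of the 10381 peaks, 5 were lower in KO (0.0482%) and 17 were higher (0.164%). Over all peaks, 2.46% were lower and 0.252% higher. The 42 genes thus held few lower peaks compared with all peaks, and their share of higher peaks also lay below that of all peaks. The shares in 14188 peaks of other protein-coding genes of at least 500 kb were 0.902% lower and 0.677% higher. At an unadjusted p under 0.05, 91 peaks of the 42 genes were lower (0.877%, against 6.75% of all peaks) and 540 were higher (5.2%, against 4.07%). All KO values lay below all WT values in 271 peaks (2.61%, against 8.21% of all peaks) and above them in 989 (9.53%, against 7.3%). The DESeq2 test on recovered reads called 1 lower and 1 higher peak in the 42 genes, and 1.06% and 0.0593% over all peaks. Without WT replicate 1 there was 1 lower peak, against 1.53% of all peaks. There were 5 higher peaks without WT replicate 2 and 5 without KO replicate 3, against 0.218% and 0.166% of all peaks.

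Most differences were small. The median log2 difference, KO minus WT, was 0.08 over the peaks of the 42 genes and 0.03 over all peaks. It was above 0 in 64.4% of the former and 54.7% of the latter. Other long genes had similar values, with a median of 0.09 and 66.5% above 0 in 49 other long neuronal genes, and 0.06 and 60.7% in the 185 other genes of at least 500 kb. A difference of at least 1 on the log2 scale in either direction was found in 10 peaks (0.0963%), against 1.05% of all peaks.

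Lower peaks were also counted by enrichment, as a description. Peaks were placed in bins of ChIP over input, pooled over all ChIP libraries and both inputs of the mark. From -0.5 to 0, 0.0137% of 7324 peaks of the 42 genes were lower in KO, against 1.27% of other peaks. From 0 to 0.5, it was 0.0709% of 2821 against 3.89%, and from 0.5 to 1 it was 1.17% of 171 against 9.51%. These shares rest on 1, 2 and 2 lower peaks. In the outer bins none of 49 peaks under -0.5 and none of 16 at 1 or more was lower, against 1.34% and 4.21% of other peaks. Other long genes were not compared by bin.

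**Figure D3:**
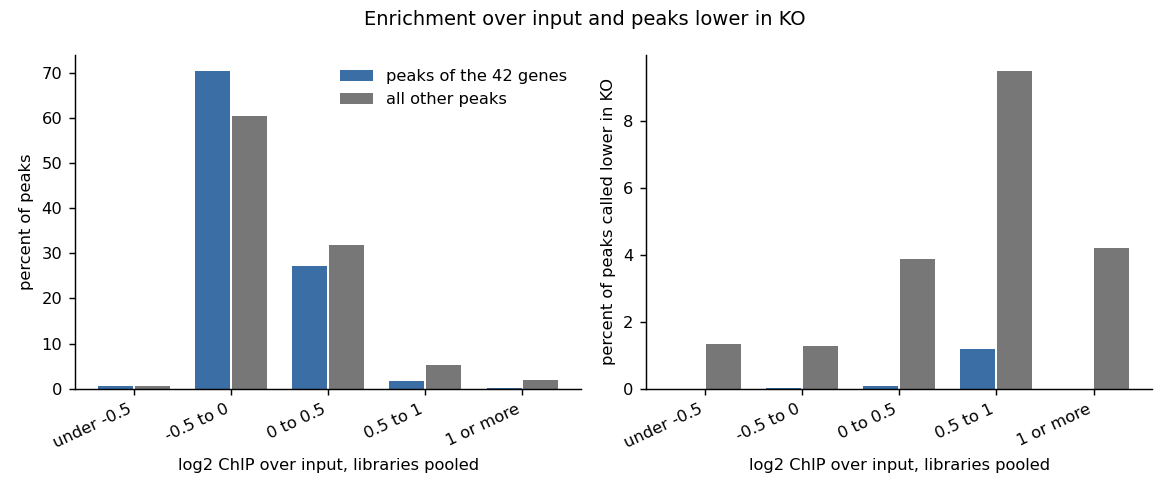
Left, the percent of peaks of the 42 genes and of all other peaks in bins of log2 ChIP over input, with libraries pooled. Right, the percent of peaks in each bin that were called lower in KO; the bars for the 42 genes reach 1.17% in the bin from 0.5 to 1, where other peaks reach 9.51%.

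The 5 lower peaks lay in Csmd3, Ptprd, Cntnap2, Magi2 and Macrod2, and none was over an exon. The Csmd3 peak (chr15:48231601-48235050) had deposited log2 values of 7.34, 7.45 and 7.36 in WT and 6.85, 6.95 and 6.79 in KO. All KO values were below all WT values, and the peak fell by 0.52 on the log2 scale (SE 0.11, limma adjusted p = 0.00217). It was the most enriched of the 5, with 0.85 (WT) and 0.54 (KO) over input, and it passed the test in all 11 refits of the peaks, DESeq2 included (adjusted p = 0.0379).

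Ptprd (chr4:76112701-76115700) gave 6.88, 6.58 and 6.66 in WT and 6.04, 5.84 and 6.41 in KO, without overlap. It fell by 0.61 (SE 0.15, limma adjusted p = 0.00717), and 81.4% of the peak was repeat. The Cntnap2 peak (chr6:46889851-46890900), 1050 bp wide, gave 5.37, 4.81 and 4.86 in WT and 3.93, 4.03 and 4.05 in KO. It had the largest difference of the 5, a fall of 1.01 (SE 0.26, limma adjusted p = 0.0153), from 46, 27 and 33 reads to 11, 19 and 16. Its input reads numbered 23 in WT and 16 in KO. Both peaks lost the call without WT replicate 1, and that of Ptprd also without KO replicate 2.

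Magi2, a scaffold protein of synapses, held a lower peak at chr5:20693101-20695200, 99.3% of the way from its 5′ end. Values were 6.29, 5.67 and 6.18 in WT and 5.31, 5.61 and 5.36 in KO, where the lowest WT and the highest KO value were close. The difference was -0.62 (SE 0.18, limma adjusted p = 0.0373). In Macrod2 the peak at chr2:140461651-140462850, which was 98.4% repeat, gave 5.14, 5.05 and 5.46 in WT and 4.57, 4.78 and 3.77 in KO. KO replicate 3 was far below the other KO libraries, and the difference was -0.84 (SE 0.25, limma adjusted p = 0.0496). The call was lost with a replicate block (limma adjusted p = 0.0509) and without KO replicate 3 (-0.54, limma adjusted p = 0.406). Relative to input the KO libraries of this peak overlapped with WT, and the KO input was lower than the WT input by 0.52 on the log2 scale. In the other 4 lower peaks all KO values over input were below all WT values.

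The 17 higher peaks lay in 13 genes, with 2 each in Tenm3, Tenm4, Nrg1 and Sgcz. None overlapped an exon, and all KO values were above all WT values in each. The strongest call was in Tenm3 (chr8:48703351-48706200), with values of 5.61, 5.26 and 5.70 in WT and 6.33, 6.33 and 6.41 in KO. It rose by 0.83 (SE 0.16, limma adjusted p = 0.000452), with 54, 37 and 59 reads in WT and 56, 94 and 86 in KO. This peak passed the test in all 11 refits, DESeq2 included (adjusted p = 0.0202). Over input it was at -0.77 (WT) and -0.11 (KO), below the average read in both genotypes.

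In Nrg1 the peak at chr8:32724901-32728800 had values of 6.23, 6.01 and 6.07 in WT and 6.68, 6.71 and 6.70 in KO. It rose by 0.60 (SE 0.14, limma adjusted p = 0.00441) and kept the call with any library left out, but not with DESeq2 (adjusted p = 0.0981). The Sgcz peak (chr8:38076001-38082000) had 6.74, 6.79 and 6.79 in WT and 7.42, 7.26 and 7.10 in KO, a rise of 0.49 (SE 0.12, limma adjusted p = 0.00778). Tenm4, a teneurin linked to myelination, had its peak at chr7:96176401-96186300, 1.37% of the way from the 5′ end. It gave 7.64, 7.44 and 7.59 in WT and 7.92, 8.03 and 7.91 in KO, a rise of 0.40 (SE 0.10, limma adjusted p = 0.00892). At this Tenm4 peak the KO input was also higher than the WT input, by 0.44, and the peak was at -0.01 (WT) and -0.07 (KO) over input.

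The other higher peaks of smallest p per gene had limma adjusted p-values between 0.0164 and 0.0479. Ntm (chr9:29717251-29718450) rose by 0.91 (SE 0.23), from 21, 17 and 25 reads in WT to 27, 41 and 36 in KO, and Magi2 (chr5:19770001-19771200) rose by 0.87. Ptprd rose by 0.72 (chr4:77725051-77726550), where the KO input was higher by 0.61. Lsamp rose by 0.60 (chr16:41799001-41801250), Cntnap2 by 0.49 (chr6:46096651-46100550), Cdh18 by 0.45 (chr15:23327551-23332950), Tenm2 by 0.41 (chr11:36317101-36325500) and Csmd2 by 0.31 (chr4:128257201-128271450). The last gene of the 13 was Grm7 (0.62, chr6:110986351-110988450). Over input, 11 of the 17 peaks had all KO values above all WT values, and in 2 the mean was lower in KO. Apart from the first Tenm3 and Nrg1 peaks and the Csmd3 peak, each called peak lost the call without at least 1 library. The higher peaks of Ntm, Csmd2, Magi2, Tenm2, Cdh18, Lsamp and Grm7 kept it in 1 of 6 such fits. So did the peaks of larger p in Tenm3 and Tenm4. The higher Cntnap2 peak and the peaks of larger p in Sgcz and Nrg1 kept it in 0 of 6.

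**Figure D4:**
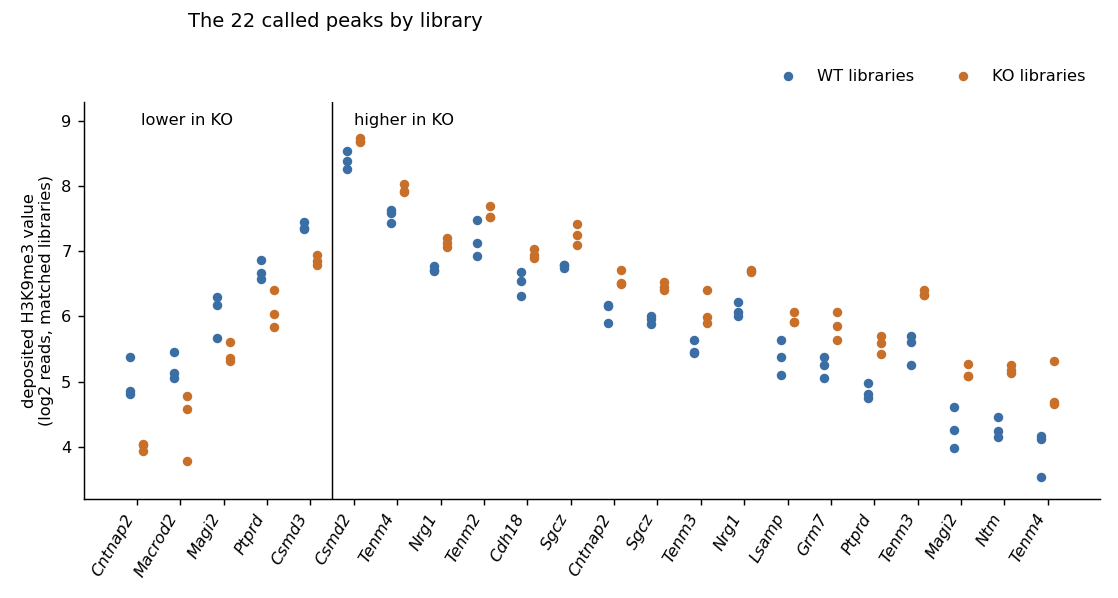
Deposited H3K9me3 values (log2 reads after the libraries were matched in distribution) of the 22 called peaks, with 3 WT and 3 KO points each. The 5 peaks left of the line were lower and the 17 to the right higher in KO, and the genotypes do not overlap in any of them.

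The called peaks of either direction are described by their makeup, with no test. The median repeat share was 65.7% in the lower and 21.6% in the higher peaks, against 22.2% in all peaks of the 42 genes. At least 50% repeat was found in 3 of the 5 lower peaks and in 3 of the 17 higher ones. The latter were the second Sgcz peak (chr8:37960951-37964100, 79.9%) and those of Ptprd (62%) and Grm7 (50.4%). The median ChIP over input went from 0.28 in WT to -0.25 in KO in the lower peaks, and from -0.41 to 0.11 in the higher ones. These ratios rest on the same reads that chose the peaks, so a high WT level in lower peaks and a low one in higher peaks are partly set by that choice.

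Genes as a whole were compared through the mean log2 value over the peaks named for them. In Cdh12, Rbfox1 and Dlg2 these were 38.8%, 40.2% and 63.5% of the peaks in the gene body. None of the 42 passed the limma test in either direction, while 17% of 14216 genes were lower and 0.478% higher. In this fit limma moderates the variance with that of all genes of similar mean value, whatever their number of peaks. SEs of the 42 genes ran from 0.09 to 0.12. The SD of their values between libraries had a median of 0.04 (WT) and 0.03 (KO). The absence of calls therefore does not show that the genes are unchanged. At an unadjusted p under 0.05, 1 of the 42 was higher (Tenm3) and none lower, against 1.98% and 28.4% of all genes. The median difference over the 42 genes was 0.08, and that over all genes was -0.14. The difference was above 0 in 40 of 42 genes, with Macrod2 (-0.06) and Kcnip4 (-0.05) below it. All KO values lay above all WT values in 22 of the 42 genes, against 5.59% of all genes, and below them in 0, against 29.2%. In 251 other genes with at least 40 peaks the median was 0.07, 85 (33.9%) had all KO values above WT, and 1 passed the test in each direction. With the spread modelled on the number of peaks, 26 of these 251 genes were higher and 5 lower.

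The count of higher genes depended on the fit. It was 1 (Tenm3) when genes were weighted by peak width, where 77 of 14216 genes were higher and 2656 lower, and 11 when the spread was modelled on the number of peaks, where 0.76% of all genes were higher. With edgeR on reads summed per gene it was 6 with scaling factors from all peaks, where 0.921% of all genes were higher, and 40 with factors from the gene sums, where 9.92% were. That last scaling moved the median of all genes to 0.00. Relative to the median of all genes, the 42 genes were higher by 0.22 in the fit on mean values, by 0.21 in the former edgeR fit and by 0.21 in the latter.

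Tenm3 had the largest difference. Its mean log2 values were 5.85, 5.79 and 5.80 in WT and 6.02, 6.09 and 6.07 in KO, without overlap. The difference was 0.25 (SE 0.09, limma adjusted p = 0.0868, unadjusted p = 0.0201), and 23 of its 60 peaks had all KO values above all WT values while 0 had them below. The input without antibody was also higher in KO over Tenm3, with 5687 reads in WT and 6162 in KO, a log2 ratio of 0.18 that was the highest of the 42 genes. Over input the gene was at -0.08 ± 0.03 (WT) and 0.03 ± 0.02 (KO, SD, n = 3 each). The part of the input in this difference was not tested.

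Ntm was next at 0.20 (SE 0.11), then Fgf14, an intracellular partner of sodium channels, at 0.15 (SE 0.11), and Dpp10 at 0.14 (SE 0.10). Their limma adjusted p-values were 0.254, 0.428 and 0.379. Neighbours in this order differed by less than 1 SE. Of the genes with most peaks per 100 kb, Cdh18 differed by 0.03, Lrp1b by 0.08 and Sgcz by 0.07, each with overlapping groups. Macrod2 gave 4.86, 4.83 and 4.80 in WT and 4.86, 4.71 and 4.75 in KO, and Kcnip4 gave 4.56, 4.49 and 4.56 and 4.52, 4.44 and 4.50. Both overlapped between genotypes. Grid1 (0.05) overlapped too and had no peak with an unadjusted p under 0.05.

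**Figure D5:**
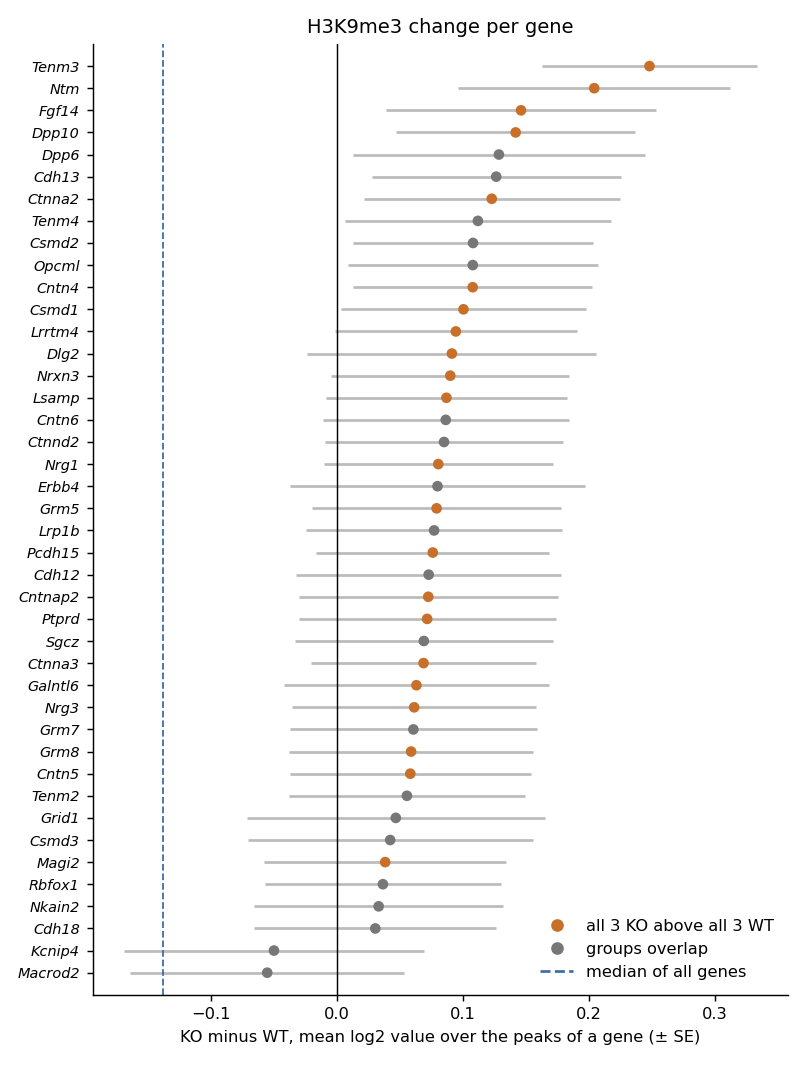
Difference KO minus WT in the mean log2 value over the peaks of each gene, with SE as bars; orange points mark the 22 genes in which all KO libraries were above all WT libraries, and the dashed line is the median of all genes at -0.14. The differences run from -0.06 in Macrod2 to 0.25 in Tenm3.

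The input ratio moved with base composition. Across the 42 genes the log2 ratio of KO to WT input had a Pearson r of 0.87 and a Spearman rho of 0.87 with the GC content of the peaks, and the gene difference in H3K9me3 had 0.43 and 0.33 with the input ratio and 0.34 and 0.35 with GC content. These are descriptions over 42 genes that share the same libraries. The input ratio ran from -0.17 in Cdh18 (median GC of peaks 36.7%) to 0.18 in Tenm3 (42.6%), and Csmd2, with the highest GC (48.6%), was at 0.16. The part of base composition in the gene differences was not tested.

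By role, the medians over peaks were near each other, from 0.04 in the group of Rbfox1, Macrod2, Galntl6 and Sgcz to 0.10 in the immunoglobulin adhesion proteins (Lsamp, Opcml, Ntm, the contactins Cntn4, Cntn5 and Cntn6, and Ptprd). Synaptic scaffolds (Dlg2 and Magi2) had 0.05, glutamate receptors 0.07, neuregulins with their receptor 0.07, and cadherins 0.07. Neurexin relatives and partners (Cntnap2, Nrxn3 and Lrrtm4) had 0.08, as had catenins, teneurins, the partners of channels and pumps (Kcnip4, Dpp6, Dpp10, Fgf14 and Nkain2), and the Csmd genes with Lrp1b. Teneurins held 5 of the 17 higher peaks among 384 peaks and no lower one. Over input the genotypes overlapped in the Tenm2 peak, in Tenm3 at chr8:48497851-48500400 and in Tenm4 at chr7:96176401-96186300. The median teneurin peak was at -0.11 (WT) and -0.13 (KO) over input. Catenins and the partners of channels and pumps held no called peak among 858 and 804 peaks. Over all peaks 0.252% were higher and 2.46% lower, and with so few calls no difference between roles was tested.

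Along the genes the difference was even. In the same 10 steps from the 5′ end, the median log2 difference of peaks ran from 0.07 to 0.09. The 5′ and 3′ parts of a gene, divided at its midpoint, were compared in 39 of the 42 genes. These had 5 or more peaks of their name in each part. Cdh12, Grid1 and Rbfox1 were left out. Cdh12 and Rbfox1 held 363 and 430 peaks in the gene body, of which 38.8% and 40.2% carried their name. None of the 39 passed the limma test, where 0.156% of 643 genes did in one direction and 0% in the other. At an unadjusted p under 0.05 there was 1, Macrod2, lower in KO, where 4.51% of the 643 genes were lower and 5.13% higher. The 5′ part of Macrod2 exceeded its 3′ part by 0.33, 0.29 and 0.36 in the WT libraries and by 0.04, 0.24 and 0.15 in the KO libraries. The groups did not overlap, and this contrast was lower in KO by 0.18 (SE 0.06, unadjusted p = 0.0223, limma adjusted p = 0.514).

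For H3K9me2, WT replicate 1 and KO replicate 3 stood apart. The chi-square distance per degree of freedom was 3.71 and 3.65 from WT replicate 1 to the other WT libraries, which were 1.36 apart, and 3.9 and 2.52 from KO replicate 3 to the other KO libraries, which were 1.37 apart. WT replicate 1 lay nearer to KO replicates 1 and 2 (2.57 and 2.41) than to the other WT libraries, and KO replicate 3 lay 2.53 and 2.42 from WT replicates 2 and 3, so the libraries did not group by genotype. No difference in H3K9me2 was detected over the 42 genes with these libraries, nor with either of them left out. None of 1358 regions passed the edgeR quasi-likelihood test, where 0.00212% of all regions were lower and 0% higher. With p under 0.05 before adjustment, 18 regions were lower (1.33%, against 1.52% of all regions) and 9 higher (0.663%, against 1.6%), and DESeq2 called none. The region of smallest p lay in Nrg1 (chr8:32700451-32710350). Its counts per 1e6 in-region reads were 11.6, 11.7 and 12.3 for WT. For KO they were 11, 9.37 and 8.6. The log2 difference was -0.30 (unadjusted p = 0.0103, edgeR adjusted p = 1). The share of in-region reads in the 42 genes averaged 4.64% ± 0.03 (WT) and 4.62% ± 0.02 (KO, SD, n = 3 each), with 4.69% and 4.70% in the inputs. Gene differences in H3K9me2 ran from -0.07 in Tenm3 to 0.03 in Nkain2, and none passed the edgeR test or had an unadjusted p under 0.05. Of all 12516 genes with a region, 0.00799% were lower and 0% higher by the adjusted p, and 1.6% and 1.44% by the unadjusted p. The median region of the 42 genes stood at -0.02 ± 0.03 (WT) and -0.03 ± 0.005 (KO) over input.

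A list of 50 other long neuronal genes was set beside these 42. Of these 49 had peaks, 6005 in all, of which 13 were lower (0.216%, against 2.46% of all peaks) and 12 higher (0.2%, against 0.252%). The higher peaks lay in Cntnap5a (3), Cntnap5b, Cntnap5c, Cadm2, Lrrc4c, Dlgap1, Astn2, Nbea, Slit3 and Negr1. The lower ones lay in Grin2a (2), Nbea (2), Sdk1 (2), Auts2, Cdh4, Epha6, Gpc6, Slit3, Ptprn2 and Dlgap1. No gene of this list passed the limma test as a whole, where 17% of all genes were lower and 0.478% higher, the nearest being Grin2a, an NMDA receptor subunit, at -0.40 (SE 0.12, limma adjusted p = 0.0517) with 7 peaks. With the spread modelled on the number of peaks, 3 of the 49 genes were lower and 7 higher, where 14.3% of all genes were lower and 0.76% higher.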

How the data were processed

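Per the submitters' processing notes and the methods of the study, reads were trimmed with Trim Galore 0.4.4, mapped to GRCm38 with Bowtie2 2.3.2, and MACS was run for each mark over the joined ChIP libraries with both inputs as background. For H3K9me3 the authors deposited log2 counts, which they had matched in distribution over the 6 ChIP libraries, so that any overall shift is removed, and unmatched log2 counts for the inputs. For H3K9me2 the deposited signal is a mean of reads over the peaks grouped into a region, and multiplying by the number of peaks gave whole reads. The authors' shorter table of H3K9me2 counts served as a check, and their tables of called peaks were otherwise not used. H3K9me3 reads were recovered from the rank of each value, exactly up to between 199 and 325 reads per library and by extrapolation above; within 0.01 on the log2 scale they returned 100% of deposited values. The recovered reads gave ChIP over input.

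H3K9me3 was tested with limma 3.58.1 (trend) on deposited values, per peak, on gene means and on the contrast of gene parts, and H3K9me2 with edgeR 4.0.16 (quasi-likelihood, TMM, filterByExpr), with genotype as the term. DESeq2 1.42.0, BLAST 2.17.0, R 4.3.3 and Python 3.11.15 were also used. Gene coordinates came from GENCODE M21. The study calls the replicates biological, and the labels do not tie them to single animals. The p-values and SEs rest on the spread between these libraries. In limma that spread is moderated with the spread of other peaks or genes of similar mean value. On simulated data with 200 features changed 2-fold, 53% of peaks, 68.5% of genes and 94% of H3K9me2 regions were recovered. Each mark had a single dispersion (0.0048 for H3K9me3, 0.0038 for H3K9me2), and noise was independent between peaks. The changed features were drawn from all features, so these rates do not describe the 42 genes or smaller differences. Peaks and genes were named by rule: the called peak of smallest p per gene and direction (at most 12 each way), the 3 genes at either end of peak density and of WT ChIP over input, and the H3K9me2 region of smallest p; Grm7, Tenm3 as a gene and the genes next to it in order, and the close relatives were named after their values were seen. The 42 genes, their roles and the other lists were chosen with earlier results of these data known.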

Additional observations from a re-analysis of the deposited data

How the results depend on the processing

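The numbers of lower and higher peaks in the 42 genes, 5 and 17, were also 5 and 17 with a replicate block, of which 4 and 16 were among the original calls, and the Macrod2 lower peak lost its call (limma adjusted p = 0.0509); the replicate numbers did not pair the libraries (correlations of same-numbered deviations between -0.01 and 0.01 for H3K9me3, and 0.18, 0.02 and 0.08 for H3K9me2), and the block changed no other count in these genes. Leaving out 1 library at a time gave 1 to 5 lower peaks (1 without WT replicate 1, 3 without WT replicate 3) and 5 to 19 higher peaks (5 without WT replicate 2 or KO replicate 3, 8 without KO replicate 2, and 9 without WT replicate 3 or KO replicate 1). DESeq2 gave 1 and 1, a filter on a mean log2 value of at least 5 gave 3 and 22 among the 5392 peaks it left (4.22% and 0.456% over all peaks left), an adjusted p under 0.01 gave 2 and 4, and a log2 difference of at least 1 gave 1 and 0. The count of 0 higher genes became 1 with that filter or with weights by width, 40 with edgeR on gene sums, 6 with edgeR and factors from all peaks, and 11 with the spread modelled on the number of peaks, of which the last pair was chosen after seeing the data, as were peaks taken by coordinates. The count of lower genes, of differing gene parts and of H3K9me2 regions stayed at 0 under each alternative run, leave-one-out included. The median difference of 0.08 kept its sign in each fit. The WT median ChIP over input of the peaks, -0.15, was -0.17 with 8 reads added, -0.0868 when scaled by the median peak and -0.12 with both inputs pooled, and that of H3K9me2 regions, -0.02, was -0.0522 with 8 reads added. The causes of these moves were not tested. The median peak of these genes held 25 to 40 reads per library. Separately, in a simulation over all 212313 peaks, 53% of 2-fold changes were recovered; recovery was not simulated by depth.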
